A study of Mus musculus with 10 samples.

Results

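B-ALL, acute leukemia of B cell precursors, was taken from 3 mice and its gene expression set against that of non-leukemic pro-B cells carrying the same Ebf1 and Pax5 mutations. The samples were chosen by their labels: dHet-B-ALL-686, dHet-B-ALL-713 and dHet-B-ALL-760, with 2 arrays each, and dHet-proB, with 2 arrays. These are 8 of the 10 samples of the series. The remaining samples, wt-proB, are used as a reference level. Here dHet stands for the genotype Ebf1+/- Pax5+/-, which the leukemias and the dHet pro-B cells share. The leukemic cells came from the lymph nodes of mice 686, 713 and 760, so each leukemia is a single animal. The dHet pro-B cells were Ebf1+/- Pax5+/- Rag2-/-. They were raised from c-Kit positive fetal liver cells on OP9 stromal feeder cells in OptiMEM with IL-7 (5 ng/ml), Flt3 ligand (10 ng/ml) and stem cell factor (10 ng/ml). The wt pro-B cells were Ebf1+/+ Pax5+/+ Fraction BC cells sorted from the bone marrow of control mice. The labels name no Rag2 deletion in the leukemias, and ages and the share of leukemic cells in each lymph node are not given in the sources used here. Leukemia, Rag2 genotype, organ of origin, fetal or later origin and culture with growth factors change together in this comparison and cannot be told apart.

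EBF1 and PAX5 are transcription factors that switch on the B lineage programme in lymphoid progenitors. PAX5 also holds down genes of other lineages. A pro-B cell rearranges its immunoglobulin heavy chain genes with the RAG1 and RAG2 recombinase while IL-7 drives its growth. Without RAG2 a cell cannot complete this step and stays at the pro-B stage. The pre-B cell receptor, built with the surrogate light chain, then slows IL-7 dependent growth, and MHC class II, CD20 and light chains appear as B cells mature. MYC is a transcription factor of cell growth that promotes ribosome production, nucleotide synthesis and cell division.

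Levels are log2 signals relative to the 75th percentile of the same array, so that 0 is that percentile. The level of a leukemia is the mean of its 2 arrays. A change is the mean of the 3 leukemias minus the mean of the 2 dHet pro-B arrays in log2 units, with the standard error (SE) of the limma fit after ±, and p-values are limma's, adjusted by the Benjamini-Hochberg method over 14452 genes. "Rose" and "fell" are used only where the adjusted p was under 0.05. Where no array of the lower group was well above background, the change is a bound ("at least"). For it each undetected signal was set at the dimmest level well above background on its array, called the floor here, or at its own level if higher. The labels do not say whether the dHet pro-B arrays are separate cultures. They differed at Xist, the RNA of the inactive X chromosome, with levels of -5.96 and 5.17, and at the Y-linked gene Ddx3y, at 1.56 and -6.14, so they do not hold the same RNA (both genes were chosen after their values were seen).

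The arrays were checked against pro-B markers and the targeted genes. Cd79a, a signal chain of the B cell receptor, stood at 2.90 in leukemia 686, 3.67 in 713 and 2.97 in 760, against 3.15 and 3.01 on the dHet pro-B arrays. Igll1, which encodes a part of the surrogate light chain, stood at 6.69 in leukemia 686, 6.53 in 713 and 7.28 in 760, against 7.21 and 7.11 on the dHet pro-B arrays. Its partner Vpreb1 stood at 8.92 in leukemia 686, 9.02 in 713 and 9.05 in 760, against 9.70 and 9.43 on the dHet pro-B arrays. Both groups thus carried these transcripts. Vpreb1 nonetheless fell, with a change of -0.56 (limma adjusted p = 0.0333). That call was lost with the slide as a random block (adjusted p = 0.212). Other pro-B markers, among them Rag1, Blnk, Il7r, Ebf1 and Pax5, fell in the leukemias as well, with values given below. The check therefore covers only part of the pro-B markers. For Rag2 the probe (chr2:101472445-101472504, mm9) read -3.04, -2.74 and -2.60 in the leukemias, -0.98 and -1.0 in the Rag2-/- dHet pro-B cells and -1.60 and -1.69 in wt pro-B cells. Whether that probe lies in the deleted stretch is not given in the sources used here, so it checks nothing. The dHet pro-B arrays correlated at r of 0.992 across genes, the pairs of a leukemia at 0.953 to 0.975, and leukemia with dHet pro-B arrays at 0.876 to 0.904. Between 35.7% and 52.4% of probes were well above background per array. Array 1 of each leukemia was on 1 slide, array 2 of each on another slide scanned on a second day, and the pro-B arrays on yet another slide scanned that same day. No slide held both leukemia and pro-B arrays, and slide cannot be told apart from group. Values within the second scan day, which use array 2 of each leukemia, are given for the leading results. They still compare different slides. Neither they nor a fit with the slide as a random block can remove a slide effect.

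Of 14452 genes, 3138 rose (21.7%) and 3529 fell (24.4%) in the leukemias. At a threshold of 2-fold as well, 12.9% rose and 14.7% fell. All 3 leukemias differed by at least 2-fold in the same direction for 1434 of the genes that rose and 1443 of those that fell. The counts rested on the 2 dHet pro-B arrays: 1570 rose and 1435 fell without dHet pro-B array 1, and 1543 rose and 1709 fell without dHet pro-B array 2. Without leukemia 713, 3667 rose and 4126 fell, and with the slide as a random block the counts were 1872 and 1437. The fit with the slide as a block used single arrays, so the 2 arrays of a mouse entered it as separate values. The median change of all genes tested was -0.06. Scaling by other percentiles or probes moved that median between -0.20 and 0.16, so small changes of single genes depend on the scaling. Counts of 1 or 2 genes in a list often moved when 1 array or leukemia was left out and are given as descriptions. List shares near the 21.7% higher and 24.4% lower of all genes are descriptions too.

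**Figure D1:**
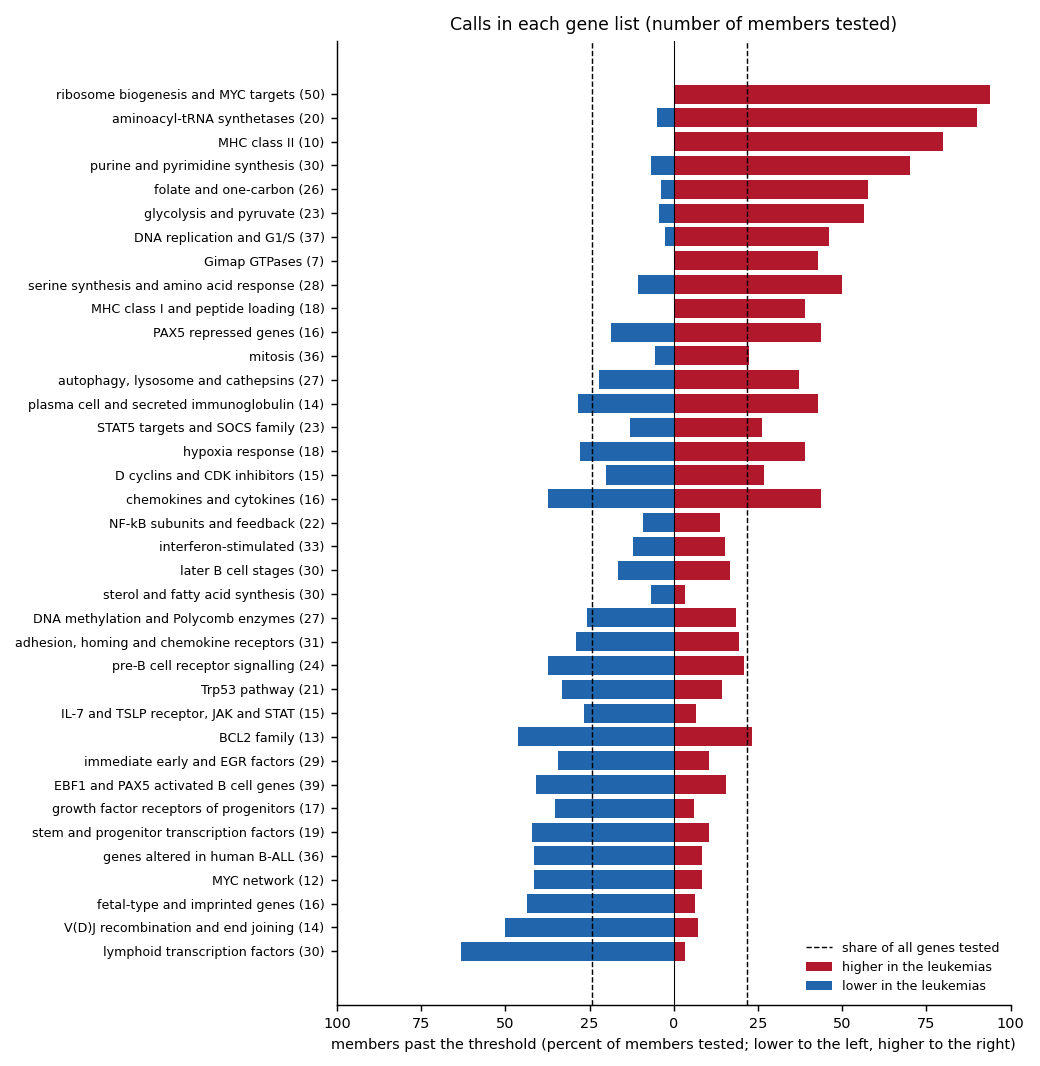
Share of the tested members of each gene list that rose (bars to the right, percent) or fell (bars to the left, percent) in the leukemias against dHet pro-B cells at an adjusted p under 0.05. Dashed lines mark the share over all 14452 genes, 21.7% higher and 24.4% lower; MHC class II and ribosome biogenesis lie far to the right, and lymphoid transcription factors far to the left.

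Myc and the genes of ribosome production were higher in the leukemias. Myc (chr15:61821516-61821576, mm9) stood at 4.94 in leukemia 686, 4.04 in 713 and 5.04 in 760, against -0.24 and 0.26 on the dHet pro-B arrays. Every leukemia lay above both dHet pro-B arrays, and the increase was 4.67 ± 0.34 (SE), 25.4-fold, with an adjusted p of 0.000744. Within the second scan day it was 4.41, with an adjusted p of 0.0013. In wt pro-B cells Myc read 1.22 and 1.33, between the cultured dHet cells and the leukemias. Of the MYC antagonists, Mxd1 fell by 2.12 ± 0.25 (adjusted p = 0.00206) and Mxd4 fell by 1.76 ± 0.22 (adjusted p = 0.00266). Both encode partners of MAX that repress MYC target sites. Max, the obligate partner of MYC, had a change of 0.27 ± 0.17, adjusted p = 0.242, and Mycn one of 0.82 ± 0.77, adjusted p = 0.412. Of 12 network genes tested, 1 rose and 5 fell, with a median change of -0.22, or 0.04 with undetected signals at the floor, and the count of lower genes was 2 without leukemia 686 array 2 or dHet pro-B array 1 and 3 without leukemia 713 array 1, dHet pro-B array 2 or either wt array. Mycl, counted among the lower genes, was well above background in neither group, and no fold is given for it.

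Of 50 ribosome biogenesis and MYC target genes tested, 47 rose, the other 3 did not pass the test, and the median change was 2.09, against -0.06 for all genes. The median was 2.22, 1.95 and 2.12 in leukemias 686, 713 and 760. Within the second scan day 46 of the 50 rose, with a median of 1.98, and with the slide as a random block 46 rose. Srm, the spermidine synthase, stood at 5.31 in leukemia 686, 4.58 in 713 and 5.02 in 760, against 0.26 and 0.19 on the dHet pro-B arrays, a change of 4.75 ± 0.23 (SE), 26.8-fold, with an adjusted p of 0.000427. The polyamine enzyme upstream of it, ornithine decarboxylase (Odc1), rose by 1.83 ± 0.15, adjusted p = 0.000965. Polr1b, a subunit of RNA polymerase I, read 3.45, 2.22 and 2.86 in the leukemias and -1.09 and -1.20 on the dHet pro-B arrays, an increase of 3.99 ± 0.35, adjusted p = 0.00104. Gnl3 (nucleostemin) rose by 3.82 ± 0.19, adjusted p = 0.000439, Rrp1b by 3.61 ± 0.25, adjusted p = 0.000701, and Nop56, a core protein of the ribosomal RNA methylation particle, by 2.48 ± 0.15, adjusted p = 0.000539. Ncl and Npm1, the abundant nucleolar proteins nucleolin and nucleophosmin, had changes of 1.07 ± 0.38, adjusted p = 0.0621 (adjusted p = 0.00453 without leukemia 760 and 0.026 without leukemia 760 array 2) and of 0.29 ± 0.18, adjusted p = 0.243 (adjusted p = 0.0343 without leukemia 713).

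E-boxes, the DNA letters that MYC with MAX and several other factors recognise, were looked up upstream of these genes because the list moved together. The letters CACGTG, the same on both strands, occurred in the 250 bases before the gene start for 9 of 41 members of the ribosome list with an entry in the RefSeq promoter table (22.0%). For all genes tested with an entry the share was 9.73%, for genes that rose 10.7% and for genes that fell 9.51%. Genes that rose by at least 8-fold had 8.70%. The share was 21.4% in the purine and pyrimidine list, 23.1% in the aminoacyl-tRNA synthetases and 9.52% in the folate list. The ribosome list includes MYC targets by its choice, made with earlier results known, so its share is a description and no test of MYC. The genes shown were chosen for holding the letters. They are Nop2, an RNA methyltransferase of the nucleolus, Hspd1, the mitochondrial chaperonin, and the purine enzymes Nme1 and Atic. Each line holds the 100 bases before the gene start on the gene's strand (GRCm38.p6), with the E-box in capitals. A match is a description and not a binding site.
Nop2, chr6:125131783-125131882, plus strand: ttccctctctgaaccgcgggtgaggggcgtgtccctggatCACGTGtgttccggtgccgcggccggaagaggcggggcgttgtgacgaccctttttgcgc
Hspd1, chr1:55088244-55088343, minus strand: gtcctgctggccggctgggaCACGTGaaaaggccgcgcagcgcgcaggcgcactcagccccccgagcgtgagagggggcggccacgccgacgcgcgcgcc
Nme1, chr11:93968273-93968372, minus strand: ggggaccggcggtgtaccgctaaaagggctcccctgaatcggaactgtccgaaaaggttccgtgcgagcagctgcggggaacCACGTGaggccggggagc
Atic, chr1:71557056-71557155, plus strand: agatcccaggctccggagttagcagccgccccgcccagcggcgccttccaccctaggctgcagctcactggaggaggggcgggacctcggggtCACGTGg
The box begins 60 bases before the start of Nop2, 80 before Hspd1, 18 before Nme1 and 7 before Atic. In the leukemias Nop2 rose by 2.64 ± 0.13, adjusted p = 0.000439, Hspd1 by 2.38 ± 0.17, adjusted p = 0.000684, Nme1 by 2.86 ± 0.22, adjusted p = 0.000789 and Atic by 2.47 ± 0.18, adjusted p = 0.000744.

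**Figure D2:**
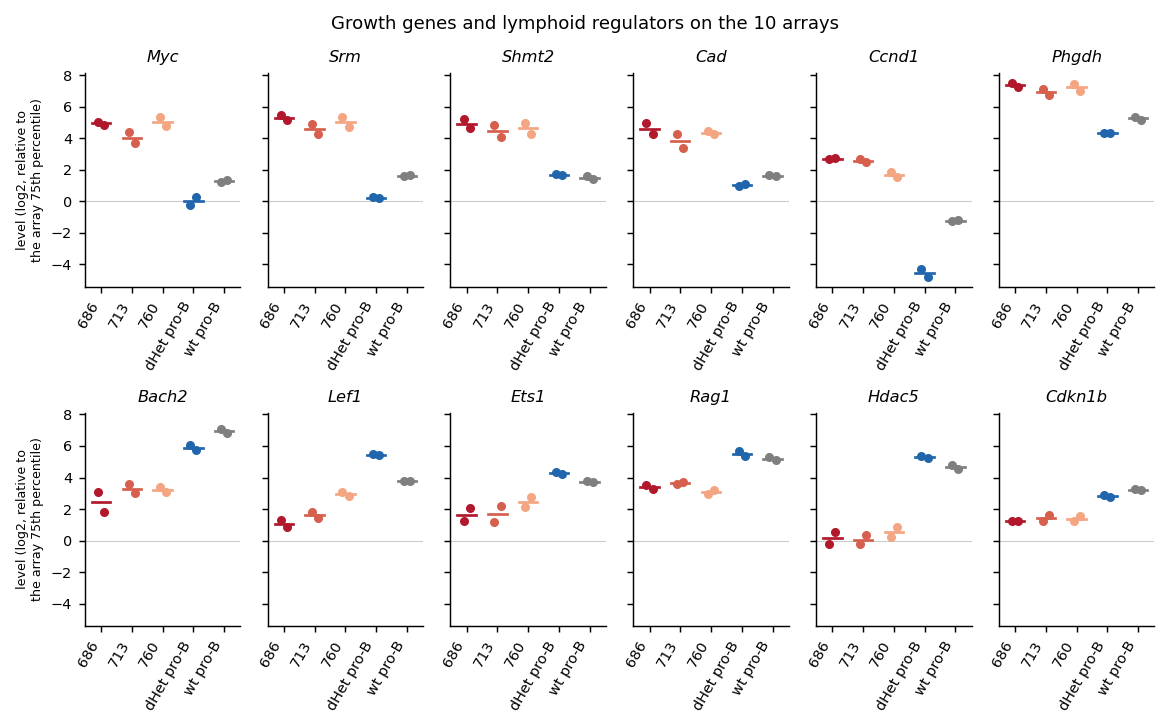
Level on each of the 10 arrays (log2 relative to the array's 75th percentile, vertical axis) of genes that rose (Myc, Srm, Shmt2, Cad, Ccnd1, Phgdh) and fell (Bach2, Lef1, Ets1, Rag1, Hdac5, Cdkn1b) in the leukemias. Each point is 1 array and the groups are along the horizontal axis; for each gene shown the 6 leukemia arrays lie on 1 side of both dHet pro-B arrays.

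Many enzymes that build nucleotides and carry one-carbon units rose in the leukemias. Of 26 folate and one-carbon genes tested, 15 rose and 1 fell, with a median change of 0.86. Shmt2, the mitochondrial enzyme that takes a carbon unit from serine, stood at 4.93 in leukemia 686, 4.46 in 713 and 4.62 in 760, against 1.71 and 1.65 on the dHet pro-B arrays, a change of 2.99 ± 0.18 (SE), 7.94-fold, with an adjusted p of 0.000484. The leukemias did not overlap the dHet pro-B arrays. The cytosolic enzymes Shmt1 (2.46 ± 0.28, adjusted p = 0.00205) and Mthfd1 (2.86 ± 0.26, adjusted p = 0.00115) rose too. So did the folate carrier Slc19a1, by 2.89 ± 0.16, adjusted p = 0.000458, with another probe of it at 0.84. Slc46a1, the proton-coupled folate transporter, fell by 1.62 ± 0.22 (adjusted p = 0.0033, or 0.128 with normexp background; 3 of 6 leukemia arrays had it well above background).

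Of 30 purine and pyrimidine genes tested, 21 rose and 2 fell, with a median of 1.17; the count of higher genes was 13 without dHet pro-B array 1. That of lower genes was 0 without either dHet pro-B array, 1 without leukemia 686 array 1, leukemia 713 array 1 or leukemia 760 array 2 and 4 without leukemia 760. Cad, which performs the opening steps of pyrimidine synthesis, had levels of 4.61, 3.81 and 4.36 in the leukemias and 0.98 and 1.1 in dHet pro-B cells, an increase of 3.22 ± 0.25, adjusted p = 0.000829, with 1 of 3 other probes at 0.50. Ppat, the committing enzyme of purine synthesis, rose by 2.56 ± 0.26, adjusted p = 0.00148 and Gart, which acts later in that path, by 2.62 ± 0.30, adjusted p = 0.00191. Dck, the deoxycytidine salvage kinase, fell by 0.69 ± 0.16 (adjusted p = 0.019) and Rrm2, a ribonucleotide reductase subunit, by 0.55 ± 0.12 (adjusted p = 0.0145). These decreases rested on single libraries, with adjusted p = 0.0729 without leukemia 760 array 2, 0.128 without dHet pro-B array 1 and 0.0719 without dHet pro-B array 2 for Dck and adjusted p of 0.0834 to 0.161 without leukemia 686 array 1, leukemia 713 array 1 or either dHet pro-B array for Rrm2. With the slide as a random block it was 0.14 for Dck and 0.23 for Rrm2.

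Serine and amino acid genes moved in both directions. Of 28 tested, 14 rose and 3 fell, with a median of 0.78, and the count of higher genes was 7 without dHet pro-B array 1 and 8 without dHet pro-B array 2. Phgdh, the opening enzyme of serine synthesis, stood at 7.38 in leukemia 686, 6.95 in 713 and 7.22 in 760, against 4.31 and 4.33 on the dHet pro-B arrays, a change of 2.87 ± 0.16 (SE), 7.29-fold, with an adjusted p of 0.000483. The amino acid transporters Slc7a5 (4.46 ± 0.37, adjusted p = 0.000946) and Slc7a1 (3.02 ± 0.16, adjusted p = 0.000439) rose. Asns, the asparagine synthetase, went the other way, with levels of -3.30, -3.51 and -5.29 in the leukemias and 1.95 and 1.80 in dHet pro-B cells. It fell by 5.90 ± 0.60 (adjusted p = 0.00145); 2 of 6 leukemia arrays had it well above background, and with the others at the floor the change was -5.21. Wt pro-B cells read -1.23 and -1.30. The glutamine transporter Slc1a5 fell by 1.32 ± 0.15 (adjusted p = 0.00176). Atf4, the regulator that both Asns and Phgdh answer to, rose by 0.82 ± 0.17, adjusted p = 0.0113, but adjusted p = 0.0814 without dHet pro-B array 1 and 0.0662 without dHet pro-B array 2, and 0.061 with the slide as a random block.

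Of 20 aminoacyl-tRNA synthetases tested, 18 rose and 1, Qars, fell, with a median of 1.20. These enzymes load amino acids onto tRNA. Farsb rose by 2.06 ± 0.28, adjusted p = 0.00329, Dars by 1.87 ± 0.18, adjusted p = 0.00131 and Mars1 by 2.08 ± 0.19, adjusted p = 0.00116, and 2 other probes of Dars had changes of 0.32 and 0.26. Qars fell by 0.39 ± 0.12 (adjusted p = 0.0422), with adjusted p of 0.0504 to 0.25 without leukemia 686, leukemia 713, leukemia 686 array 1, leukemia 686 array 2, leukemia 713 array 1, leukemia 713 array 2, leukemia 760 array 2, either dHet pro-B array or either wt array, and of 0.351 with the slide as a random block.

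Of 23 glycolysis genes tested, 13 rose and 1 fell, with a median of 0.79. Hk2, the hexokinase that commits glucose, stood at 0.77 in leukemia 686, 0.51 in 713 and 0.60 in 760, against -2.67 and -2.51 on the dHet pro-B arrays and rose by 3.22 ± 0.23, adjusted p = 0.000709. The glucose transporter Slc2a3 rose by 2.37 ± 0.16, adjusted p = 0.000667 and lactate dehydrogenase A (Ldha) by 2.05 ± 0.17, adjusted p = 0.000932. In the sterol and fatty acid list 1 of 30 rose and 2 fell, with a median of -0.33; the count of lower genes was 1 without either wt array or either dHet pro-B array and 16 without leukemia 760. Insig1, which holds back sterol synthesis when sterols are plentiful, fell by 3.92 ± 0.50 (adjusted p = 0.00269).

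Cyclins D1 and D2 rose, and 2 brakes of the cell cycle fell. Of 15 D cyclin and CDK inhibitor genes tested, 4 rose (26.7%) and 3 fell (20.0%), near the 21.7% and 24.4% of all genes. The median change was -0.82, or -0.54 with undetected signals at the floor. Those that rose were Ccnd1, Ccnd2, Cdk4 and Rbl1, and those that fell Cdkn1c, Cdkn1b and Rb1. Ccnd1 (cyclin D1, chr7:152116173-152116232, mm9) was detected above background on 6 of 6 arrays of the leukemias and no dHet pro-B array. It stood at 2.70 in leukemia 686, 2.57 in 713 and 1.69 in 760, against -4.29 and -4.81 on the dHet pro-B arrays. The increase was at least 83.0-fold (adjusted p = 0.000439 for the fitted change). Wt pro-B cells read -1.27 and -1.20. Ccnd2, the D cyclin typical of cycling pro-B cells, read 4.58, 4.57 and 6.27 in the leukemias and 2.14 and 2.29 in dHet pro-B cells, a change of 2.92 ± 0.54, adjusted p = 0.00818, but adjusted p = 0.0581 without dHet pro-B array 1 and 0.0505 without dHet pro-B array 2. Ccnd3 had a change of -0.54 ± 0.24, adjusted p = 0.121 (adjusted p = 0.028 without leukemia 713). Their partner kinase Cdk4 rose by 1.07 ± 0.18, adjusted p = 0.00626. The brakes Cdkn1b (p27), which fell by 1.45 ± 0.13 (adjusted p = 0.00108), and Rb1, which fell by 1.29 ± 0.21 (adjusted p = 0.00513), were lower. Cdkn2a, the locus of p16 and p19Arf, read -1.91 in leukemia 686, -5.79 in 713 and -5.99 in 760, against -1.32 and -1.01 on the dHet pro-B arrays. Leukemia 686 lay near the dHet pro-B arrays and the other two far below, with a change of -3.40 ± 1.24, adjusted p = 0.0705 (adjusted p = 0.00101 without leukemia 686); 1 of 6 leukemia arrays had it well above background, and with the others at the floor the change was -2.18.

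Of 37 DNA replication and G1/S genes tested, 17 rose and 1 fell, with a median of 0.52. That count was among the least stable: 2 without dHet pro-B array 1, 5 without dHet pro-B array 2, 7 without leukemia 713 array 1, 9 without leukemia 686 or leukemia 686 array 2, 10 without leukemia 760 or either wt array, 11 without leukemia 760 array 1 or leukemia 760 array 2 and 28 without leukemia 713. Mcm2, part of the replicative helicase, rose by 1.19 ± 0.14, adjusted p = 0.00237 and Fen1, a flap endonuclease, by 1.04 ± 0.15, adjusted p = 0.00416. In the mitosis list 8 of 36 rose (22.2%, near the 21.7% of all genes) and 2 fell (5.56%, against 24.4%), with a median of 0.25. Its higher count was 0 without dHet pro-B array 1, 2 without dHet pro-B array 2 and 3 without leukemia 713 array 1, and 1 with the slide as a random block. Its lower count was 0 without either dHet pro-B array and 1 without leukemia 686, leukemia 686 array 1, leukemia 686 array 2 or leukemia 713 array 1. Mki67, a marker of cycling cells, stood at 6.13 in leukemia 686, 5.76 in 713 and 5.75 in 760, against 6.06 and 6.07 on the dHet pro-B arrays. The groups overlapped, and the change was -0.19 ± 0.19, adjusted p = 0.446, 95% interval -0.65 to 0.28. Top2a had a change of 0.02 ± 0.15, adjusted p = 0.94 and Ccnb1 one of 0.38 ± 0.20, adjusted p = 0.165.

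Most transcription factors of early lymphoid and B cells were lower in the leukemias. Of 30 tested, 19 fell and 1 rose, with a median change of -1.49, and in leukemias 686, 713 and 760 the median was -1.52, -0.98 and -1.44. Within the second scan day 18 fell, and with the slide as a random block 16 fell. Bach2, a repressor needed at the pre-B checkpoint, stood at 2.46 in leukemia 686, 3.30 in 713 and 3.22 in 760, against 6.06 and 5.74 on the dHet pro-B arrays. It fell by 2.91 ± 0.29 (7.49-fold, adjusted p = 0.00136). Lef1, a WNT effector of pro-B cells, read 1.05, 1.60 and 2.96 in the leukemias and 5.51 and 5.40 in dHet pro-B cells and fell by 3.59 ± 0.54 (adjusted p = 0.00436). Ets1 fell by 2.37 ± 0.26 (adjusted p = 0.00175), with other probes between -2.90 and -1.17. Ikzf1 (Ikaros), often deleted in human B-ALL, fell by 1.12 ± 0.12 (adjusted p = 0.00164). Zeb2 fell by 1.81 ± 0.20 (adjusted p = 0.00174) and Sox4 by 1.97 ± 0.12 (adjusted p = 0.000498). Bcl11a rose, by 1.40 ± 0.20, adjusted p = 0.00394, whereas Spi1 (PU.1) had a change of -0.12 ± 0.32, adjusted p = 0.779.

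The targeted genes themselves were read in both groups. Ebf1 (chr11:44818365-44818424, mm9) stood at 1.82 in leukemia 686, 2.06 in 713 and 2.10 in 760, against 2.84 and 2.89 on the dHet pro-B arrays. All leukemias lay below both dHet pro-B arrays, and Ebf1 fell by 0.87 ± 0.14 (adjusted p = 0.00517), while with scaling to the array median its adjusted p was 0.0817. The Pax5 probe, whose aligned blocks span chr4:44550354-44582908 (mm9), read -5.08 in leukemia 686, -2.91 in 713 and -5.62 in 760, against -1.40 and -1.67 on the dHet pro-B arrays. Leukemias 686 and 760 read lower than 713, and 2 of 6 leukemia arrays had it well above background, and with the others at the floor the change was -1.92. Pax5 fell by 3.0 ± 0.79 (adjusted p = 0.0259), with adjusted p of 0.0536 to 0.125 without leukemia 686, either dHet pro-B array or either wt array and of 0.0878 with the slide as a random block. In wt pro-B cells Ebf1 read 3.11 and 2.99 and Pax5 -0.30 and -0.67. In such bulk samples fewer cells of a type and less RNA per cell cannot be told apart.

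Of 39 genes that EBF1 or PAX5 is known to activate, 16 fell and 6 rose, with a median of -0.43, and the count of lower genes was 6 without either dHet pro-B array. Blnk, the adaptor of pre-B cell receptor signalling, stood at 7.18 in leukemia 686, 7.74 in 713 and 7.78 in 760, against 9.42 and 9.26 on the dHet pro-B arrays and fell by 1.77 ± 0.22 (adjusted p = 0.0024). Foxo1 fell by 1.45 ± 0.34 (adjusted p = 0.0179), but adjusted p = 0.105 without dHet pro-B array 1 and 0.0771 without dHet pro-B array 2. Bank1, a scaffold of mature B cell receptor signalling, went the other way, with levels of 2.62, 2.89 and 1.55 against -2.15 and -2.47, a rise of 4.67 ± 0.41, adjusted p = 0.00104. Of 16 genes that PAX5 is known to repress, 7 rose and 3 fell, with a median of 1.12, or 0.95 with undetected signals at the floor; the count of higher genes was 3 without dHet pro-B array 2 and 4 without dHet pro-B array 1. Csf1r, the M-CSF receptor, read 0.47, -0.11 and -2.34 in the leukemias and -6.20 and -6.26 in dHet pro-B cells and rose by at least 10.54-fold, with an adjusted p of 0.00402 for the fitted change. Another probe of it had a change of 1.56. Csf1r is also a macrophage marker, and 11 of 23 such markers rose, with the levels given below. Their part in this change was not tested. Emb (embigin) rose by 2.86 ± 0.18, adjusted p = 0.000592.

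In the V(D)J recombination list 7 of 14 genes fell and 1 rose; the lower count was 4 without either dHet pro-B array. Rag1 stood at 3.39 in leukemia 686, 3.67 in 713 and 3.07 in 760, against 5.66 and 5.35 on the dHet pro-B arrays and fell by 2.13 ± 0.22 (4.37-fold, adjusted p = 0.00148). DNA ligase IV (Lig4) fell by 2.72 ± 0.29 (adjusted p = 0.00165) and Artemis (Dclre1c) by 1.76 ± 0.28 (adjusted p = 0.00492), with other probes between -2.41 and -0.79. Xrcc5 (Ku80) rose by 1.84 ± 0.43, adjusted p = 0.018, but adjusted p = 0.0585 without leukemia 713 array 1, 0.0928 without dHet pro-B array 1 and 0.0905 without dHet pro-B array 2. Dntt, the terminal transferase that adds bases at joints, had levels of 5.88, 4.55 and 8.29 in 686, 713 and 760 and 6.71 and 6.08 in dHet pro-B cells. Its mean change was -0.16 ± 1.04, adjusted p = 0.911. Leukemia 760 was higher than 713 by 3.74. These are single mice, and the adjusted p of 0.000721 (limma) for that difference sets it against the spread between repeat arrays only.

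Of 36 mouse counterparts of genes altered in human B-ALL, 15 fell and 3 rose; the lower count was 9 without dHet pro-B array 1, the higher 5 without leukemia 713 or leukemia 760. Among those that rose were Myc, given above, and Trp53 (1.42 ± 0.17, adjusted p = 0.00242, with another probe at -0.53 and an adjusted p of 0.0964 for the mean of its probes). Kmt2a fell by 1.35 ± 0.25 (adjusted p = 0.00879), but adjusted p = 0.0674 without dHet pro-B array 1 and 0.0738 with the slide as a random block.

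Most genes of the MHC class II pathway, by which B cells and macrophages show peptides to helper T cells, were higher in the leukemias. Of 10 tested, 8 rose and the other 2 did not pass the test. The median change was 5.26, or 4.35 with undetected signals at the floor. With normexp background it was 2.78, and 7 genes rose. The authors' deposited values also gave a median of 2.78, and 7 genes rose. The direction was thus kept, but the size of the median depended on the processing. Leaving out dHet pro-B array 2 gave a higher count of 4, and leaving out dHet pro-B array 1 gave 5. Within the second scan day 8 rose with a median of 4.93. H2-Aa, the class II alpha chain (chr17:34421285-34421344, mm9), stood at 1.55 in leukemia 686, 3.53 in 713 and -0.55 in 760, against -5.91 and -6.08 on the dHet pro-B arrays. Every leukemia array was well above background and neither dHet pro-B array was. The increase was at least 47.3-fold, with an adjusted p of 0.00411 for the fitted change. H2-Eb1, a beta chain, read 1.19, 3.04 and -1.0 against -5.79 and -5.89, a rise of at least 35.0-fold, with an adjusted p of 0.00513 for the fitted change. Ciita, the master regulator that recruits transcription to class II promoters, read -0.95, 1.39 and -0.58 in the leukemias and -6.06 and -6.21 in dHet pro-B cells and rose by at least 16.1-fold, with an adjusted p of 0.00189 for the fitted change. The invariant chain Cd74 rose by 6.29 ± 1.16, adjusted p = 0.00816, but adjusted p = 0.0523 without dHet pro-B array 1 and 0.0551 without dHet pro-B array 2. H2-Oa and H2-Ob, which restrain peptide loading, had changes of -0.42 ± 0.50, adjusted p = 0.523 (adjusted p = 0.00309 without leukemia 713) and -1.44 ± 0.66, adjusted p = 0.123 (adjusted p = 0.00082 without leukemia 713). Probes of H2 genes can share sequence between family members, so single class II values are uncertain to that extent.

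The wt pro-B arrays give a second reference for these genes. They read 4.18 and 4.17 for H2-Aa, 4.00 and 3.71 for H2-Eb1 and 2.48 and 2.28 for Ciita. The class II levels of wt pro-B cells thus lay above those of every leukemia for H2-Aa, H2-Eb1 and Ciita. The difference between dHet and wt pro-B cells had adjusted p = 0.00312 for H2-Aa and adjusted p = 0.00155 for Ciita. Of all genes tested, 20.1% were higher and 15.7% lower in dHet than in wt pro-B cells at an adjusted p under 0.05. Both comparisons use the same dHet pro-B arrays.

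The promoters of class II genes are known to hold a short set of elements, among them the Y box bound by the factor NF-Y, and these genes moved together. Of 7 class II genes with a RefSeq promoter entry, 3 held the letters CTGATTGG on either strand in the 250 bases before the gene start. The share was 6.41% of genes tested, 5.88% of those that rose and 6.73% of those that fell. The letters contain CCAAT on the other strand, which 37.5% of all promoters in the table and 7 of 7 class II entries held. The 150 bases before the gene start follow on the gene's strand (GRCm38.p6), with the Y box in capitals.
H2-Aa, chr17:34287824-34287973, minus strand: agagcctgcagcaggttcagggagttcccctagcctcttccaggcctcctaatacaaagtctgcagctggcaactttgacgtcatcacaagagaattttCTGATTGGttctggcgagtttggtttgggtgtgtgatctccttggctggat
H2-Eb1, chr17:34305717-34305866, plus strand: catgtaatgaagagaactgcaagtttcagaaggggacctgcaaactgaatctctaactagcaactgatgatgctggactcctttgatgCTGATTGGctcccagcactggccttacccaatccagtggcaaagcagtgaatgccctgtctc
H2-Oa, chr17:34092229-34092378, plus strand: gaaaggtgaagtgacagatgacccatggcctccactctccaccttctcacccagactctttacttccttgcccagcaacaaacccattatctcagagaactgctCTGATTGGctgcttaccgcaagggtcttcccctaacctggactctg
The box begins 51, 62 and 46 bases before the start of H2-Aa, H2-Eb1 and H2-Oa. H2-Oa holds it as well, although its change did not pass the test.

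**Figure D3:**
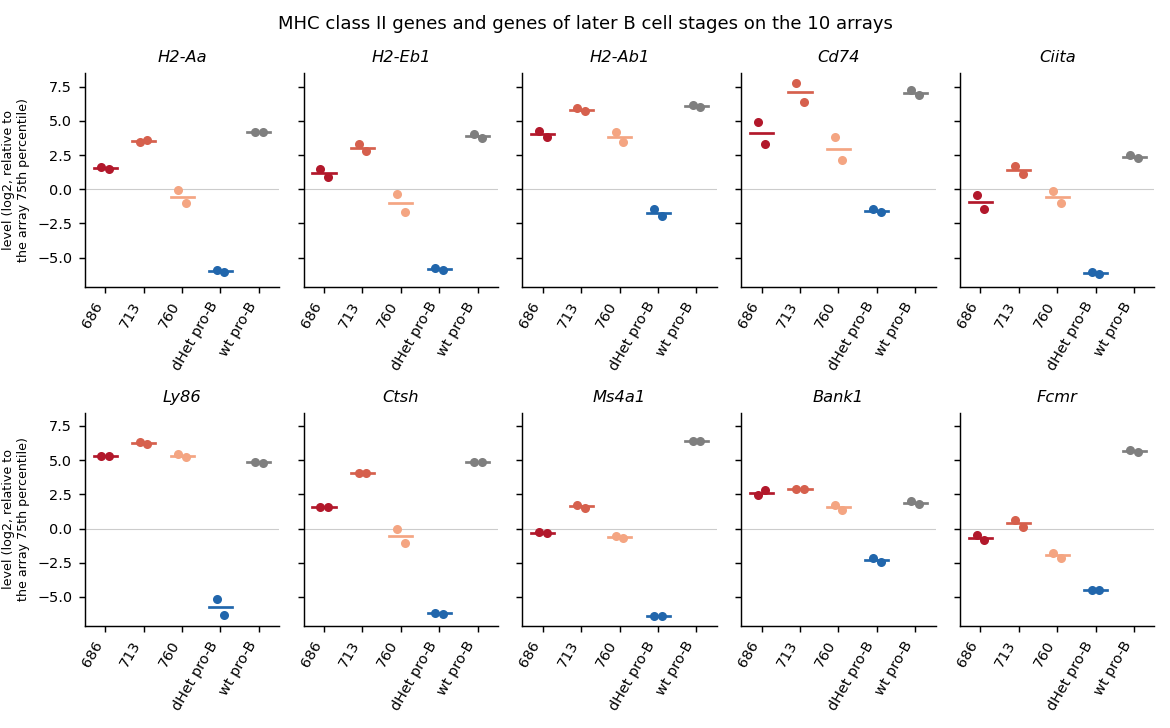
Level on each of the 10 arrays (log2 relative to the array's 75th percentile, vertical axis) of MHC class II genes (H2-Aa, H2-Eb1, H2-Ab1, Cd74, Ciita) and of genes of later B cell stages or antigen handling (Ly86, Ctsh, Ms4a1, Bank1, Fcmr). Each point is 1 array, by group along the horizontal axis; all 6 leukemia arrays lie above both dHet pro-B arrays for each gene shown.

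Of 30 other genes of B cell maturation tested, 5 rose and 5 fell, 16.7% in each direction, below the 21.7% and 24.4% of all genes. The higher count was 3 without dHet pro-B array 1 and 9 without leukemia 760, and the lower count was 2 without dHet pro-B array 1, 3 without dHet pro-B array 2 and 9 without leukemia 713. Ms4a1 (CD20) stood at -0.30 in leukemia 686, 1.62 in 713 and -0.60 in 760, against -6.36 and -6.42 on the dHet pro-B arrays and rose by at least 19.7-fold, with an adjusted p of 0.00136 for the fitted change. In wt pro-B cells it read 6.37 and 6.41. Fcmr, the receptor for IgM, rose by at least 9.89-fold, with an adjusted p of 0.00651 for the fitted change. Ly86 (MD-1), partner of the toll-like protein RP105, was detected above background on 6 of 6 arrays of the leukemias and neither dHet pro-B array, a rise of at least 821-fold (adjusted p = 0.000284 for the fitted change). The cysteine protease cathepsin H (Ctsh) read 1.58, 4.04 and -0.55 in the leukemias and -6.16 and -6.26 in dHet pro-B cells and rose by at least 53.6-fold, with an adjusted p of 0.00495 for the fitted change. Irf4, which promotes light chain rearrangement, fell by 1.81 ± 0.33 (adjusted p = 0.0079, but adjusted p = 0.0608 without dHet pro-B array 1). Bcl6, a germinal centre repressor, fell by 2.21 ± 0.15 (adjusted p = 0.000626).

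Immunoglobulin transcripts moved in both directions. The probe named Iglv1 (lambda light chain) read 2.35, 3.53 and 5.93 in the leukemias and -3.53 and -4.21 in dHet pro-B cells, which lack RAG2. The rise was 7.81 ± 1.01 (SE), 224-fold, with an adjusted p of 0.00281. On dHet pro-B array 2 the probe read below that array's floor of -4.09, so the fold rests in part on an undetected signal. Other Iglv1 probes, detected on neither dHet pro-B array, had changes between 4.45 and 7.90. Ighg3, a switched heavy chain, rose by 5.84 ± 0.98, adjusted p = 0.00621 and Jchain, the joining chain of secreted antibody, by 7.27 ± 0.88, adjusted p = 0.00236, whereas Ighm, the mu heavy chain, fell by 2.39 ± 0.29 (adjusted p = 0.00246). Immunoglobulin probes share sequence between family members and are uncertain. Of 14 genes tested in the plasma cell and secreted immunoglobulin list, 6 rose and 4 fell. The log2 of their mean linear signal was lower in the leukemias, at 4.29 to 5.35 over the leukemia arrays. It was 6.01 and 5.83 on the dHet pro-B arrays and 6.47 and 6.33 on the wt pro-B arrays. The plasma cell surface marker Sdc1 (CD138) fell by 1.61 ± 0.17 (adjusted p = 0.00157), and Prdm1, the master regulator of plasma cells, by at least 2.16-fold, with an adjusted p of 0.00137 for the fitted change and of 0.173 with normexp background and 0.114 with the slide as a random block.

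In pre-B cell receptor signalling 5 of 24 genes rose (20.8%, near the 21.7% of all genes) and 9 fell (37.5%, against 24.4%). The higher count was 2 without either dHet pro-B array, and the lower count was 5 without either dHet pro-B array. The phosphatase Ptpn6 (SHP-1) rose by 1.82 ± 0.22, adjusted p = 0.00239, with another Ptpn6 probe at 0.43. Cd24a, the heat stable antigen, fell by 2.15 ± 0.21 (adjusted p = 0.00135). Of 18 MHC class I genes 7 rose. Those that rose were chaperones and protease parts such as Calr (2.27 ± 0.13, adjusted p = 0.000483), Pdia3 (1.68 ± 0.12, adjusted p = 0.000744) and the immunoproteasome subunit Psmb8 (1.47 ± 0.21, adjusted p = 0.00399), while B2m, the shared light chain, had a change of 0.21 ± 0.19, adjusted p = 0.401.

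Receptors and effectors of growth factors differed gene by gene. In the IL-7 and TSLP list 4 of 15 fell and 1 rose, and the lower count was 1 without either dHet pro-B array and 7 without leukemia 713. The lower share was 26.7%, near the 24.4% of all genes, and the higher share 6.67%, against 21.7%. Il7r stood at 3.86 in leukemia 686, 4.52 in 713 and 4.63 in 760, against 5.41 and 5.28 on the dHet pro-B arrays. It fell by 1.01 ± 0.25 (adjusted p = 0.0217), but adjusted p = 0.12 without dHet pro-B array 1 and 0.0908 without dHet pro-B array 2. Crlf2, the TSLP receptor, fell by 1.33 ± 0.20 (adjusted p = 0.00429), whereas Il2rg, the shared gamma chain, rose by 1.42 ± 0.15, adjusted p = 0.00159. Shares in the STAT5 and SOCS list were 26.1% higher, near the 21.7% of all genes, and 13.0% lower, against 24.4%. Of 23 STAT5 targets and SOCS genes, 6 rose and 3 fell; the higher count was 2 without either dHet pro-B array, and the lower count was 7 without leukemia 713. Pim3, a survival kinase, rose by 1.46 ± 0.14, adjusted p = 0.0013, Bcl2l1 (BCL-XL) fell by 2.24 ± 0.34 (adjusted p = 0.00445), and Cish, a direct STAT5 target, rose by 1.1 ± 0.25, adjusted p = 0.0165, but adjusted p = 0.0603 without leukemia 686 array 2, 0.102 without dHet pro-B array 1 and 0.0751 without dHet pro-B array 2.

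The receptors for the culture's own cytokines were read as well. Kit, the stem cell factor receptor, read 0.71, -0.74 and 1.23 in the leukemias, 3.38 and 3.24 in dHet pro-B cells and -1.47 and -1.62 in wt pro-B cells. It fell by 2.91 ± 0.56 (adjusted p = 0.00941), but adjusted p = 0.0637 without dHet pro-B array 1 and 0.0556 without dHet pro-B array 2. Flt3 stood at 1.0 in leukemia 686, 1.24 in 713 and -1.42 in 760, against -1.90 and -1.38 on the dHet pro-B arrays, and the change was 1.91 ± 0.81, adjusted p = 0.103 (adjusted p = 0.00172 without leukemia 760). The largest decrease among these receptors was that of Bmpr2, a BMP receptor, with levels of -4.32, -5.87 and -5.15 against 2.19 and 2.20. It fell by 7.31 ± 0.43 (adjusted p = 0.000484); 1 of 6 leukemia arrays had it well above background, and with the others at the floor the change was -5.97. In the same direction, 2 other probes had changes of -6.23 and -5.16. Over the 17 receptors, 6 fell and 1 rose, with a lower count of 1 without dHet pro-B array 1, 2 without dHet pro-B array 2 and 11 without leukemia 713 and a higher count of 2 without leukemia 713 or leukemia 760 array 2 and 3 without leukemia 760.

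Of 19 stem and progenitor factors, 8 fell and 2 rose, with a lower count of 3 without either dHet pro-B array and 5 without leukemia 686 array 2 and a higher count of 1 without either dHet pro-B array and 4 without leukemia 713. Meis1, counted among the lower genes, was well above background in neither group. Hoxa7 read -3.67, -3.90 and -4.36 in the leukemias and -0.37 and -0.03 in dHet pro-B cells and fell by 3.77 ± 0.24 (adjusted p = 0.000557); 2 of 6 leukemia arrays had it well above background. Hoxa9 was detected on neither dHet pro-B array and on 1 of 6 arrays of the leukemias, so no change is given. Of 16 fetal-type and imprinted genes, 7 fell and 1 rose, with a lower count of 3 without dHet pro-B array 1 and 4 without leukemia 686 array 2. Igf2, a fetal growth factor, stood at -5.48 in leukemia 686, -6.10 in 713 and -6.08 in 760, against 1.08 and 1.5 on the dHet pro-B arrays. No leukemia array was well above background, and the decrease was at least 35.2-fold (adjusted p = 0.000256 for the fitted change). Wt pro-B cells read -6.16 and -6.30, so the high level was that of the cultured fetal liver cells. Igf2bp2 rose by 2.42 ± 0.24, adjusted p = 0.00133. Lin28b fell by at least 2.0-fold on its brightest probe, with an adjusted p of 0.00918 for the fitted change. Another probe of Lin28b, not used for the call, had a change of -5.34 (limma adjusted p = 0.000433). It was well above background on both dHet pro-B arrays and on no leukemia array. The call of Lin28b was lost in some fits, with adjusted p = 0.289 without leukemia 686 array 2 and 0.0684 without dHet pro-B array 1, and 0.406 with the slide as a random block.

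Immediate early genes, induced within minutes by signals or handling, were counted in both directions: 10 of 29 fell and 3 rose, and the lower count was 5 without dHet pro-B array 2, the higher 1 without either dHet pro-B array and 5 without leukemia 686 or leukemia 713. Fos was among those counted as lower but was well above background in neither group. Btg2, an antiproliferative gene, fell by 2.90 ± 0.41 (adjusted p = 0.00371) and Klf4 by 2.05 ± 0.31 (adjusted p = 0.00446). The MAPK feedback inhibitors Spry1 and Spry2 moved apart, with Spry1 up by 3.2 ± 0.49, adjusted p = 0.00453 and Spry2 down, as it fell by 1.76 ± 0.24 (adjusted p = 0.00325), with another probe at -0.67. Klf2, a quiescence factor, fell by 2.11 ± 0.33 (adjusted p = 0.00477), another probe had a change of 0.37, and within the second scan day the change was -0.20 with an adjusted p of 0.639. The call of Klf2 rested on array 1 of the leukemias, with adjusted p = 0.121 without leukemia 686 array 1, 0.142 without leukemia 713 array 1 and 0.132 without leukemia 760 array 1, and 0.312 with the slide as a random block. Of 22 NF-kB genes 3 rose (13.6%) and 2 fell (9.09%), below the 21.7% and 24.4% of all genes. The number that rose was 0 without dHet pro-B array 2, 1 without dHet pro-B array 1 and 8 without leukemia 760, and the number that fell 0 without leukemia 686 or either dHet pro-B array and 1 without leukemia 760, leukemia 686 array 2, leukemia 760 array 1 or either wt array. Of 33 interferon-stimulated genes 5 rose (15.2%) and 4 fell (12.1%), also below those shares of all genes. Here the number that rose was 2 without either dHet pro-B array and 10 without leukemia 686, and the number that fell 0 without either dHet pro-B array, 1 without either wt array and 2 without leukemia 686 or leukemia 713 array 1. Oasl1, an antiviral synthetase-like protein, stood at -0.25 in leukemia 686, 2.39 in 713 and 1.85 in 760, against -3.94 and -4.26 on the dHet pro-B arrays. It rose by 5.43 ± 0.76, adjusted p = 0.0036. Its level on dHet pro-B array 2 lay below that array's floor of -4.09, so the change rests in part on an undetected signal. Isg15 had a change of 0.30 ± 0.48, adjusted p = 0.635 and Irf7 one of -0.43 ± 0.45, adjusted p = 0.458.

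Genes of the p53 pathway and of cell death also divided. Shares were 14.3% higher and 33.3% lower in the p53 pathway and 23.1% and 46.2% in the BCL2 family. Those of all genes were 21.7% and 24.4%. Of 21 p53 pathway genes, 7 fell and 3 rose, with a lower count of 4 without either dHet pro-B array. Plk2, a p53-induced kinase, read -4.15, -4.22 and -4.87 against -1.26 and -1.33 and fell by 3.12 ± 0.26 (adjusted p = 0.000932); 1 of 6 leukemia arrays had it well above background, and with the others at the floor the change was -2.40. Aen, a p53-induced nuclease, rose by 2.16 ± 0.13, adjusted p = 0.000483, with another probe at 0.43. In the BCL2 family 3 of 13 rose and 6 fell; the lower count was 1 without either dHet pro-B array and 3 without either wt array. Bok read 4.88, 4.34 and 3.77 in the leukemias and -0.30 and 0.48 in dHet pro-B cells and rose by 4.24 ± 0.41, adjusted p = 0.00126. Bid, which links death receptors to mitochondria, rose by 2.59 ± 0.35, adjusted p = 0.00323, and Bcl2 itself had a change of 0.79 ± 0.40, adjusted p = 0.156.

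Adhesion and homing receptors showed 6 higher (19.4%) and 9 lower (29.0%) of 31, near the 21.7% and 24.4% of all genes. The higher count was 1 without dHet pro-B array 2 and 2 without dHet pro-B array 1, and the lower count was 5 without either dHet pro-B array and 14 without leukemia 713. Ccr9, a chemokine receptor of gut and thymus homing, stood at -2.43 in leukemia 686, -1.94 in 713 and -4.15 in 760, against 2.24 and 2.53 on the dHet pro-B arrays and fell by 5.23 ± 0.64 (adjusted p = 0.00243). Itga4, which binds VCAM1 on stroma such as OP9, fell by 2.70 ± 0.30 (adjusted p = 0.0018), with other probes between -2.99 and -0.98. Cxcr4, the bone marrow retention receptor, had a change of -0.01 ± 0.29, adjusted p = 0.985. Among 16 chemokines and cytokines 7 rose and 6 fell. The higher count was 3 without either dHet pro-B array, and the lower count was 2 without dHet pro-B array 1 and 3 without dHet pro-B array 2. Ccl9, a chemokine of myeloid cells, stood at -2.19 in leukemia 686, -2.61 in 713 and -3.28 in 760, against 5.73 and 5.58 on the dHet pro-B arrays. It fell by 8.35 ± 0.38 (adjusted p = 0.000427), and wt pro-B cells read -3.54 and -2.78. Ccl5, made by T and NK cells, read 3.88, 3.88 and 1.61 in the leukemias and -3.71 and -2.64 in dHet pro-B cells and rose by 6.29 ± 0.82, adjusted p = 0.00287. Of 7 Gimap GTPases tested, proteins of lymphocyte survival, 3 rose: Gimap3 (5.65 ± 0.38, adjusted p = 0.000627), Gimap4 (5.13 ± 0.30, adjusted p = 0.000483) and Gimap7 (2.84 ± 0.31, adjusted p = 0.00166).

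Of 27 DNA methylation and Polycomb enzymes, 5 rose and 7 fell. The higher count was 2 without dHet pro-B array 2, 3 without leukemia 713 array 1 or dHet pro-B array 1 and 9 without leukemia 713, and the lower count was 4 without either dHet pro-B array. Hdac5, a class II histone deacetylase (chr11:102057068-102057122, mm9), stood at 0.15 in leukemia 686, 0.06 in 713 and 0.52 in 760, against 5.34 and 5.22 on the dHet pro-B arrays and fell by 5.04 ± 0.18 (32.8-fold, adjusted p = 0.000256). Kdm5b, an H3K4 demethylase, fell by 3.72 ± 0.53 (adjusted p = 0.00363); 1 of 6 leukemia arrays had it well above background, and with the others at the floor the change was -3.07. Ezh2, the H3K27 methyltransferase, fell by 1.01 ± 0.15 (adjusted p = 0.00423), whereas its partner Eed rose by 1.34 ± 0.13, adjusted p = 0.00124. Shares were 38.9% higher and 27.8% lower in the hypoxia list and 37.0% and 22.2% in the lysosome and autophagy list. Both lower shares lay near the 24.4% of all genes. In the hypoxia list 7 of 18 rose and 5 fell, and the higher count was 2 without dHet pro-B array 2 and 3 without dHet pro-B array 1, the lower 2 without either dHet pro-B array. Bhlhe40, a hypoxia-induced repressor, fell by 3.97 ± 0.49 (adjusted p = 0.00243); 1 of 6 leukemia arrays had it well above background, and with the others at the floor the change was -3.24. Of 27 lysosome and autophagy genes 10 rose and 6 fell, and the higher count was 4 without either dHet pro-B array, the lower 3 without dHet pro-B array 1. Hexa, a lysosomal hexosaminidase, rose by 3.16 ± 0.15, adjusted p = 0.000427, while Map1lc3b (LC3B), of the autophagosome membrane, fell by 1.51 ± 0.21 (adjusted p = 0.00331), with another probe at -0.40.

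Large changes occurred outside these lists too. Mylk, the myosin light chain kinase, stood at 1.83 in leukemia 686, 1.74 in 713 and 2.61 in 760, against -3.93 and -4.12 on the dHet pro-B arrays and rose by 6.09 ± 0.28 (SE), 67.9-fold, with an adjusted p of 0.000427. On dHet pro-B array 2 Mylk read below that array's floor of -4.09, so its fold rests in part on an undetected signal. Jaml, a junctional adhesion molecule, rose by 5.42 ± 0.67, adjusted p = 0.00252 and Car3, a carbonic anhydrase, by 5.40 ± 0.94, adjusted p = 0.00678. Smpdl3a, a sphingomyelinase-like enzyme, was detected above background on 6 of 6 arrays of the leukemias and neither dHet pro-B array, a rise of at least 66.6-fold (adjusted p = 0.00153 for the fitted change). In the other direction, Kynu, a kynureninase, read -3.25, -4.51 and -2.78 against 2.85 and 2.75 and fell by 6.31 ± 0.50 (adjusted p = 0.000843). Smo, the Hedgehog signal transducer, and Garem1, an adaptor of EGF receptor signalling, were on no leukemia array well above background, with decreases of at least 43.1-fold and 37.4-fold (adjusted p = 0.000439 and adjusted p = 0.000256 for the fitted changes). Slco1b2, an organic anion transporter of liver, fell by 7.39 ± 0.35 (adjusted p = 0.000427); 1 of 6 leukemia arrays had it well above background, and with the others at the floor the change was -6.39. It read 2.64 and 2.59 in dHet pro-B cells and -6.00 and -6.03 in wt pro-B cells, so that it was high in the cultured fetal liver cells among these groups.

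Markers of other cell types were higher in some leukemias. Of 23 macrophage and monocyte markers 11 rose and 1 fell, and the higher count was 6 without dHet pro-B array 2 and 17 without leukemia 760. Of those that rose, 9 were detected on neither dHet pro-B array, so their rise is measured against undetected signals. With undetected signals at the floor 8 rose and the median change was 1.13 in place of 2.11, and 5 rose with normexp background. The log2 of their mean signal was 2.38 and 2.53 in leukemia 686, 3.32 and 2.98 in 713 and 0.45 and 0.03 in 760. It was 1.04 and 1.25 on the dHet pro-B arrays and 0.54 and 0.98 on the wt pro-B arrays. Leukemias 686 and 713 thus lay above both dHet pro-B arrays, and 760 below both. Marco, a scavenger receptor, rose by at least 20.3-fold, with an adjusted p of 0.00606 for the fitted change. C1qc, of complement, rose by at least 4.11-fold, with an adjusted p of 0.00367 for the fitted change. Adgre1 (F4/80), a defining macrophage marker, stood at -1.95 in leukemia 686, -6.11 in 713 and -5.22 in 760, against -6.12 and -6.21 on the dHet pro-B arrays. Since 1 of 6 arrays of the leukemias and neither dHet pro-B array detected it above background, no change is given. Of 14 T cell markers 4 rose and 1 fell, the lower count was 0 without leukemia 686 array 2 or either dHet pro-B array and 2 without leukemia 760, and the level of the list was 0.37 to 2.71 against 0.01 and 0.38. Cd8b1 read 1.17, 1.44 and 0.05 in the leukemias and -6.36 and -6.40 in dHet pro-B cells, a rise of at least 30.8-fold, with an adjusted p of 0.000483 for the fitted change. Cd3d rose by 4.65 ± 0.47, adjusted p = 0.00145, and Cd3e, which the T cell receptor needs at the surface, had a change of -1.03 ± 0.58, adjusted p = 0.191. Of 9 NK and cytotoxic markers 3 rose, or 6 without leukemia 760, with levels of 1.36 to 2.38 against 1.13 and 0.98. In the erythroid list 5 of 9 rose and 1 fell, the higher count was 3 without dHet pro-B array 1, and the levels were 1.23 to 4.21 against -2.96 and -2.61. Alpha globin (Hba-a1) was detected above background on 6 of 6 arrays of the leukemias and no dHet pro-B array, at least 236-fold higher (adjusted p = 0.00569 for the fitted change), with sequence shared between globin genes.

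Dendritic cell markers showed 1 higher and 3 lower of 9, at 2.46 to 4.87 against 3.69 and 3.84. Their higher count was 0 without leukemia 713 array 1 or either dHet pro-B array, 2 without leukemia 760 array 1 and 5 without leukemia 760, and their lower count 0 without either dHet pro-B array. Mast cell, basophil and eosinophil markers showed 3 higher and 1 lower of 8, at -1.73 to -1.24 against 0.41 and 0.27. Their higher count was 1 without either dHet pro-B array and 6 without leukemia 760, and their lower count 0 without either dHet pro-B array. Of 12 neutrophil markers 0 passed limma's adjusted threshold, 0 had an unadjusted p under 0.05, and 0 passed on the authors' deposited value table, while 3 rose with the scan day as a block. Their level was 0.96 and 1.38 in leukemia 686, -1.65 and -3.11 in 713 and -3.41 and -4.72 in 760. It was -3.51 and -4.22 on the dHet pro-B arrays. On the wt pro-B arrays it was 2.50 and 3.53, above every leukemia array. Stromal and OP9 feeder markers showed 1 higher and 4 lower of 12, at 1.29 to 2.36 against 1.69 and 1.67, with a lower count of 2 without dHet pro-B array 1. Kdr, an endothelial receptor, fell by 4.78 ± 0.59 (adjusted p = 0.00251); 2 of 6 leukemia arrays had it well above background, and with the others at the floor the change was -3.53. Endothelial and lymph node stroma markers as a list showed 1 higher and 3 lower of 10, at 0.93 to 3.43 against 0.98 and 1.05, with a lower count of 1 without either dHet pro-B array. Of 2 megakaryocyte markers 1 rose, at -3.97 to -0.64 against -5.01 and -5.59, and the count was 0 without leukemia 686, either wt array or either dHet pro-B array and 2 without leukemia 760. Of 3 fetal hepatocyte markers 1 rose, at 1.13 to 2.01 against -1.06 and -0.96, and the count was 0 without either dHet pro-B array and 3 without leukemia 760. Both lists lay above the dHet pro-B arrays on all 6 leukemia arrays. The wt pro-B arrays read 0.76 and 0.02 for the megakaryocyte list, above every leukemia array, and 1.99 and 2.12 for the fetal hepatocyte list. MHC class II, Csf1r, Ccl5, Ctsh, Ctsw and the cathepsin genes are expressed by macrophages, T cells or NK cells as well as, for some of them, by B cells. The part of such cells in the changes of those genes was not tested.

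**Figure D4:**
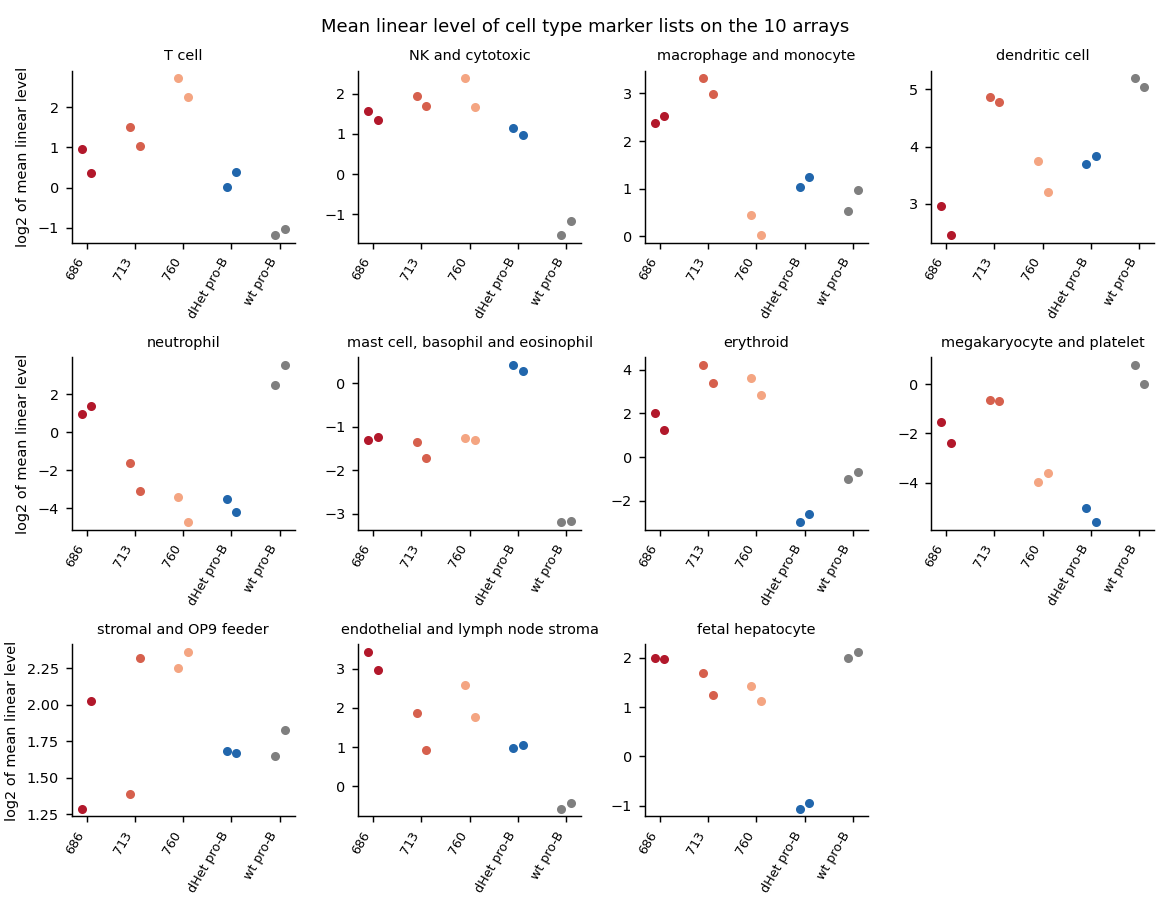
Log2 of the mean linear signal of each marker list (vertical axis, relative to the array's 75th percentile) on each of the 10 arrays, by group along the horizontal axis. Each point is 1 array. The erythroid list lies above both dHet pro-B arrays on every leukemia array. The macrophage list spans 0.03 to 3.32 over the leukemia arrays against 1.04 and 1.25 on the dHet pro-B arrays. Leukemias 686 and 713 lie above both of these and 760 below both.

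Some genes placed the leukemias on opposite sides of the dHet pro-B cells: 142 genes had 1 leukemia at least 2-fold above both dHet pro-B arrays and another at least 2-fold below both. The mean change hides such genes. Cd36, a fatty acid receptor, read -3.16, 3.29 and -4.52 in leukemias 686, 713 and 760 and -2.13 and -2.30 on the dHet pro-B arrays, so 713 was high and 760 low. Foxc1, a forkhead factor, read -2.79, 3.29 and -4.07 against -1.75 and -1.39, and Inppl1 (SHIP2) read -1.47, 2.58 and -4.30 against -0.96 and -1.18. Psma8, a proteasome subunit of testis, read 2.14, -4.26 and -4.28 against -2.99 and -2.22. The gene AI661453 read 1.29, -3.28 and 3.49 against 0.38 and 0.90 and was highest in leukemia 760. The low leukemia of such genes was in part below background, so its level there is a bound.

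**Figure D5:**
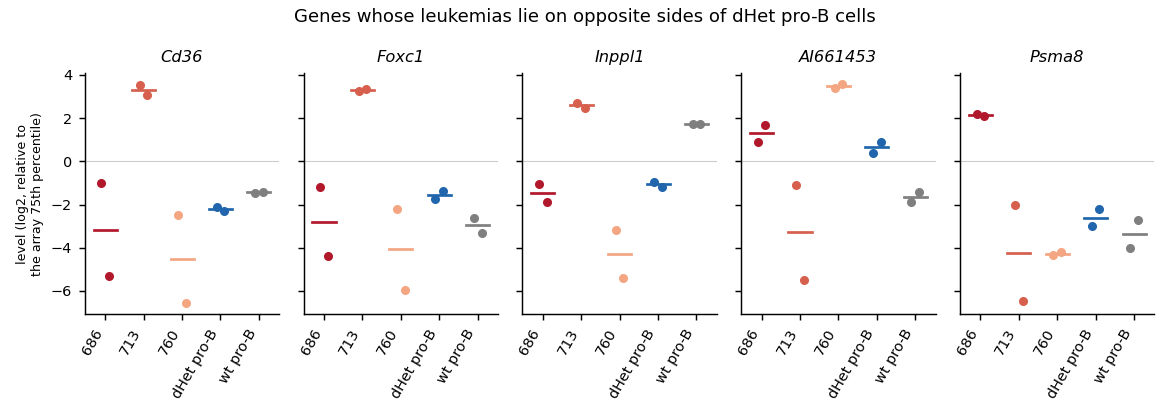
Level on each of the 10 arrays (log2 relative to the array's 75th percentile, vertical axis) of 5 genes with a wide range between leukemias on opposite sides of dHet pro-B cells. Each point is 1 array, by group along the horizontal axis; the leukemia arrays lie on both sides of the dHet pro-B arrays for every gene shown.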

How the data were processed

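Cy3-labelled cRNA of 10 mouse samples was hybridised to single-colour Agilent arrays, 1 array per sample. The deposited scanner files hold intensity values, background-subtracted within each array by Agilent Feature Extraction 10.5.1.1, per the file headers, whereas version 9.1 stands in the submitters' processing notes. The authors' deposited value table holds log2 values whose background, centring and floor are unstated in the sources used here; its direction follows signal, with r of 0.927 to 0.974 per array against the scanner signal.

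From these, log2 of the processed signal was taken, less the 75th percentile of non-control probes on that array. Control and outlier spots were left out, no spot was saturated, and spots of a probe were averaged. A probe was kept where every array of 1 or more of the 5 groups had it well above background (22300 probes), and the brightest one stands for a gene. Probes were named by accession (28287), symbol (5394) or synonym (327) from a RefSeq table; 7166 kept the array's name. Promoters are RefSeq, GRCm38.p6, and probe coordinates mm9. limma 3.58.1 (R 4.3.3) was fitted to 7 values, the means of 3 leukemias, 2 dHet and 2 wt pro-B arrays, in 3 classes with 4 residual degrees of freedom. The leukemias are separate mice, but the labels do not say this of the pro-B arrays, and the number of arrays limits the precision. On simulated data of 14452 genes, 17, 37, 45 and 45 of 50 genes changed by 1, 2, 3 and 4 log2 units were recovered, with 6 false calls. The gene lists, members and the naming rule were chosen with earlier results of these data known. The rule named the 15 largest changes per direction, the 8 largest bounds, up to 4 members per list and direction besides its defining members, and 6 genes with leukemias on opposite sides. Max, Npm1, Igll1, H2-Oa, H2-Ob, Xist and Ddx3y were added after their values were seen, and Nop2, Hspd1 and Atic for their E-box. Some named genes are not reported here. Alternatives covered background, scaling, filters, blocks, probes and each array or leukemia left out. Figures were drawn with matplotlib 3.10.9.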

Additional observations from a re-analysis of the deposited data

Results flagged for a closer look

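Genes whose leukemias lay on opposite sides of the dHet pro-B cells differed between leukemias by a test of that difference over all 10 arrays in 5 groups (limma, adjusted over all genes). The spread behind these p-values is that between the arrays within each group, not between mice. The first 5 genes were chosen for this difference. Dntt was named as a defining gene, but it stands here because its levels met the same rule of at least 2-fold on both sides. The test is thus a description for every gene here. Cd36 was 7.81 higher in leukemia 713 than in 760 (adjusted p = 0.0156), Foxc1 7.36 higher (adjusted p = 0.00997) and Inppl1 6.88 higher (adjusted p = 0.000767). AI661453 was 6.77 higher in 760 than in 713 (adjusted p = 0.00937). Psma8 was 6.43 higher in 686 than in 760 (adjusted p = 0.0285). Dntt, a defining pro-B gene, was 3.74 higher in 760 than in 713 (adjusted p = 0.000721), on opposite sides of the dHet pro-B arrays.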

How the results depend on the processing

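Of 137 named genes that passed the test, 116 passed under each alternative run except the averaging of every pair of arrays, 5 were lost only without a dHet pro-B array and 16 under some other alternative. With normexp background 1577 genes rose and 1558 fell, and with the slide as a random block 1872 and 1437. Scaling by the array median gave 1975 lower genes, and 62.5% of calls were higher against 47.1% as reported; scaling on probes detected on all arrays gave 38.1%. Keeping only probes detected on all arrays gave 2163 lower genes, of 9555 tested. A filter on the 4 groups compared, chosen after seeing the data, gave 3165 and 3482. Averaging every pair left 5 values and 0 genes in either direction, with 2066 higher and 2219 lower at an unadjusted p under 0.05. Leaving out 1 array or leukemia gave 1543 to 3667 higher and 1435 to 4126 lower genes. The change turned in sign for 3 named genes. That of Vpreb1 was -0.56 as reported and 0.0705 with quantile normalization (adjusted p = 0.754). With 1 leukemia left out, the change of Cd36 ran from -1.63 (without 713) to 2.28 and that of Foxc1 from -1.86 (without 713) to 1.82. The causes were not tested, other than the smaller number of genes or samples. Replicate numbers did not pair leukemias with dHet pro-B arrays: their differences between arrays correlated at -0.03 to 0.06. Between leukemias the same differences correlated at 0.44 to 0.63. Arrays 1 and 2 of every leukemia lay on different slides and scan days, so array number carried a shared signal among the leukemias. Its cause was not tested. With a replicate block 3729 genes rose and 3945 fell. Dim signals limit precision, since a gene below background has only a bound.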
